A study of Mus musculus with 12 samples.

Results

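The 5 genes described here are *Pnpla2*, *Lipe*, *Mgll*, *Abhd5* and *G0s2*. They encode the 3 lipases of triglyceride breakdown in fat cells, and a coactivator and an inhibitor of the first lipase. They were chosen by name from the 55401 genes counted in each library, and all 5 were found and passed the filter on low counts. RNA was measured by RNA-seq in subcutaneous white adipose tissue (scWAT) of 12 female mice, with 3 per group in 4 groups: *Jmjd1a* +/+ (wild-type) mice at 30°C, wild-type mice at 8°C, mice homozygous for the HY allele of *Jmjd1a* (HY/HY) at 30°C, and HY/HY mice at 8°C. All mice were on a C57BL/6J background and 16 weeks old when the treatment began, and all were first acclimated to 30°C for 1 week before the week at either temperature. The HY allele is a knock-in made with CRISPR/Cas9 that puts tyrosine in place of a histidine of JMJD1A (H1122Y) and removes its activity as a demethylase of histone H3 lysine 9. It is present in every cell of the animal, so effects outside fat are included, and the females came from 1 line.

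Fat cells store triglyceride in a lipid droplet and release it as fatty acids and glycerol by lipolysis. Adipose triglyceride lipase (ATGL, *Pnpla2*) removes the first fatty acid, hormone-sensitive lipase (HSL, *Lipe*) hydrolyses the diglyceride that remains, and monoglyceride lipase (*Mgll*) releases glycerol and the last fatty acid. CGI-58 (*Abhd5*) is the coactivator of ATGL, and *G0s2* encodes a small protein that inhibits it. In the cold, noradrenaline acts on β-adrenergic receptors, cAMP rises and protein kinase A phosphorylates HSL and perilipin 1, which releases CGI-58 to ATGL. Much of this regulation acts on the proteins, which RNA levels do not show.

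The libraries held between 13592629 and 26352081 read pairs on the sense strand of genes, and the largest at 8°C was smaller than the smallest at 30°C. Mitochondrial transcripts took 16.8% of the counts in replicate 3 of the HY/HY mice at 30°C, against 9.32% and 9.76% in the other 2. Replicate 2 of the wild-type mice at 30°C held 1440 CPM (counts scaled to a common library size by TMM) of skeletal muscle markers, against 15.2 and 26.7 CPM in the other 2. White adipocyte markers were high in every library, with a sum over 12 genes between 25367 and 60002 CPM. *Kdm3a*, the gene of JMJD1A, was at 49.3 ± 11.2 CPM (SD, n = 3, here and below) in wild-type mice and 45.5 ± 7.68 CPM in HY/HY mice at 30°C, and at 39.9 ± 3.78 and 44.8 ± 1.40 CPM at 8°C. A count per gene does not tell the alleles apart.

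In coordinates of GRCm38.p6, *Pnpla2* (ENSMUSG00000025509.15) lies on chromosome 7 from 141455188 to 141460743, and *Lipe* (ENSMUSG00000003123.15) on the same chromosome from 25379527 to 25398486. *Mgll* (ENSMUSG00000033174.17) lies on chromosome 6 from 88724412 to 88828360, *Abhd5* (ENSMUSG00000032540.16) on chromosome 9 from 122351616 to 122381524, and *G0s2* (ENSMUSG00000009633.3) on chromosome 1 from 193272160 to 193273188. In RefSeq, the span of *Lipe* overlaps *4732471J01Rik* and that of *Mgll* overlaps *Gm26588*, and none was found for *Pnpla2*, *Abhd5* or *G0s2*. The counts carry Ensembl IDs, and overlaps in that annotation were not looked up. When the strands were counted together, *Lipe* kept 63.8% to 69.0% of its sense count and *Abhd5* 73.4% to 80.3%, while *Mgll* kept 96.0% to 97.8%. The sense count was used for every value below, and counting both strands changed none of the calls on the 5 genes.

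The 250 bases in front of the annotated start are printed here for the 3 genes whose RNA rose with cold in at least 1 comparison, so that the letters can be read beside the values. They are RefSeq sequence of GRCm38.p6, 5′ to 3′ on the strand of the gene, which is the plus strand for all 3. The *Pnpla2* window is chr7:141454938-141455187, the *Mgll* window is chr6:88724162-88724411 and the *Abhd5* window is chr9:122351366-122351615. Capitals mark matches on either strand to the cAMP response element half-site (TGACG), the nuclear receptor half-site (AGGTCA), the E-box (CACGTG), the forkhead element (GTAAACA) and the CCAAT box, and no match overlapped another.
Pnpla2: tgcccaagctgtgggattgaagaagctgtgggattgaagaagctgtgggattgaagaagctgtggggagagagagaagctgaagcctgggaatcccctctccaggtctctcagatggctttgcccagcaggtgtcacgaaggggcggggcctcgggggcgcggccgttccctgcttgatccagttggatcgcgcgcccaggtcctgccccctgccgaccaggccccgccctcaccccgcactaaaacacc
Mgll: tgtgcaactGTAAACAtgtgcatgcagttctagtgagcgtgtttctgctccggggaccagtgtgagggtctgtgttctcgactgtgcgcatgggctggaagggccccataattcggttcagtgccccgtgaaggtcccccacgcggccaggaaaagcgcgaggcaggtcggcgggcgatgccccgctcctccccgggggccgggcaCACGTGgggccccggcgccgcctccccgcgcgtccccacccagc
Abhd5: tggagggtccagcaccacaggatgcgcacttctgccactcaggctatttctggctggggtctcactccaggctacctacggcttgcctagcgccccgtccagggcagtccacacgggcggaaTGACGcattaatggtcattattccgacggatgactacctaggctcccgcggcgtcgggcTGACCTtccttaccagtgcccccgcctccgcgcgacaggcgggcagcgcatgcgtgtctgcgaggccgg
The *Mgll* window holds a forkhead element 241 bases and an E-box 44 bases before the start, and the *Abhd5* window holds a cAMP half-site at 128 and a nuclear receptor half-site, read on the other strand, at 69. The *Pnpla2* window has 0 matches to these 5 motifs. Of 32851 windows of the same length over all promoters, 17.8% hold the cAMP half-site, 14.0% the nuclear receptor half-site, 6.0% the E-box, 3.2% the forkhead element and 33.8% the CCAAT box. A second annotated start of *Mgll* has 0 matches, the windows of *Lipe* hold an E-box and a forkhead element, and that of *G0s2* holds a cAMP half-site. These are matches of letters, and no binding was measured here.

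Levels of different genes were compared as CPM per kilobase of exon. *Pnpla2* had the highest mean of the 5 in all 4 groups, followed by *Lipe*, *G0s2*, *Mgll* and *Abhd5* in that order. In wild-type mice at 8°C these means were 848 ± 107 CPM per kilobase for *Pnpla2*, 348 ± 56.8 for *Lipe*, 273 ± 97.6 for *G0s2*, 235 ± 11.8 for *Mgll* and 48.3 ± 2.15 for *Abhd5*. The coactivator was thus the scarcest transcript, and its libraries lay below those of *Mgll* in every group. *G0s2* and *Mgll* overlapped in every group, *Lipe* and *G0s2* overlapped except in wild-type mice at 30°C, and *Pnpla2* and *Lipe* overlapped at 30°C in both genotypes but not at 8°C. Among 15033 genes ranked by CPM per kilobase, *Pnpla2* was at rank 87 in wild-type mice at 30°C and 57 at 8°C, and at rank 83 and 34 in HY/HY mice. *Lipe* was between ranks 117 and 181 and *Abhd5* between 864 and 1800.

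The first question was whether a week of cold raised the lipolysis genes in wild-type scWAT. The genes are taken one at a time, beginning with the lipases. A gene was called at a Benjamini-Hochberg adjusted p under 0.05 over all 16540 genes tested (edgeR quasi-likelihood test) and a fold change above 1.5 or below 0.67.

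*Mgll* was the member with the clearest rise in wild-type mice. It was at 559.6, 492.8 and 834.0 CPM in replicates 1 to 3 at 30°C, and at 1083, 1143 and 1198 CPM at 8°C. The groups did not overlap, and the libraries at 8°C lay close together. The rise was 1.82-fold (log2 0.86, SE 0.22, adjusted p = 0.0148, edgeR). *Mgll* in HY/HY mice was at 817.0, 619.3 and 980.1 CPM at 30°C and at 1168, 1012 and 1197 CPM at 8°C. These groups did not overlap either, but the 1.40-fold difference (log2 0.48, SE 0.22) had an adjusted p of 0.333. The wild-type call was lost without replicate 1 (adjusted p = 0.0558) or replicate 2 (0.0621) at 30°C, or replicate 3 at 8°C (0.0515), with log2 changes of 0.79, 0.71 and 0.83, and over 21 alternatives the adjusted p ran from 0.000324 to 0.0621.

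*Pnpla2* was at 1150, 1113 and 2172 CPM in wild-type mice at 30°C and at 2190, 2774 and 2723 CPM at 8°C. The groups did not overlap, yet replicate 3 at 30°C lay just under the lowest library at 8°C. The 1.73-fold difference (log2 0.79, SE 0.40) did not pass the test (adjusted p = 0.164, edgeR). The HY/HY mice had 1233, 758.5 and 2535 CPM at 30°C and 3053, 2289 and 3657 CPM at 8°C. Replicate 3 at 30°C, which was also the library with the high mitochondrial share, lay above the lowest library at 8°C, and the 1.99-fold difference was not called (log2 0.99, SE 0.40, adjusted p = 0.283). Without that library the change was 1.59 on the log2 scale and was called (adjusted p = 0.0282, against 0.0282 to 0.555 over 21 alternatives).

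*Lipe* moved least. It was at 1007, 1139 and 1775 CPM in wild-type mice at 30°C and at 1293, 1625 and 1798 CPM at 8°C, and at 1564, 1209 and 1949 CPM and 1563, 1530 and 2203 CPM in HY/HY mice. The libraries of the temperatures overlapped in both genotypes. The log2 changes were 0.27 in wild-type mice (95% confidence interval -0.30 to 0.83) and 0.17 in HY/HY mice (-0.40 to 0.73).

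*Abhd5*, the coactivator of ATGL, was at 73.8, 93.6 and 111.7 CPM in wild-type mice at 30°C and at 149.9, 163.8 and 158.4 CPM at 8°C. The groups did not overlap, and the 3 libraries at 8°C spanned a narrow range. The rise was 1.69-fold (log2 0.76, SE 0.23, adjusted p = 0.0319, edgeR). HY/HY mice had 72.0, 79.8 and 132.3 CPM at 30°C and 219.9, 158.3 and 224.3 CPM at 8°C, again without overlap. The fitted difference there was 2.12-fold (log2 1.08, SE 0.23) with an adjusted p of 0.0877, above the limit, although DESeq2 called it (adjusted p = 0.0013) and edgeR did so without replicate 3 at 30°C (log2 1.40, adjusted p = 0.00606). With the replicate number of the sample titles as a block the rise was called (log2 1.12, adjusted p = 0.0276, edgeR). The mice at the temperatures were separate animals, and the titles do not say that same-numbered mice were paired. The wild-type call was lost without replicate 1 (adjusted p = 0.112) or 2 (0.0834) at 30°C, and without replicate 1 (0.0632), 2 (0.0871) or 3 (0.0841) at 8°C, with log2 changes between 0.62 and 0.80. Over 21 alternatives the adjusted p of *Abhd5* ran from 0.00623 to 0.112 in wild-type and from 0.0013 to 0.30 in HY/HY mice.

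*G0s2*, the inhibitor of ATGL, varied widely between mice of one group. It was at 177.3, 80.1 and 170.6 CPM in wild-type mice at 30°C and at 193.8, 172.1 and 324.0 CPM at 8°C, with overlap. In the mutants it was at 55.8, 192.0 and 284.7 CPM at 30°C and at 267.2, 151.2 and 325.8 CPM at 8°C, also with overlap. The log2 changes were 0.69 (SE 0.51, adjusted p = 0.341) and 0.48 (SE 0.51, adjusted p = 0.70). In wild-type mice the change was 0.40 without replicate 2 at 30°C and 0.36 without replicate 3 at 8°C. For HY/HY mice it was 0.06 without replicate 1 and 1.00 without replicate 3 at 30°C, and 0.74 and 0.24 without replicates 2 and 3 at 8°C. The coefficient of variation of *G0s2* was between 35.7% and 64.9% in the 4 groups. It was the highest of the 5 except in wild-type mice at 30°C, where that of *Pnpla2* was 40.7%, and in wild-type mice at 8°C it compared with 5.04% for *Mgll* and 4.45% for *Abhd5*.

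**Figure D1:**
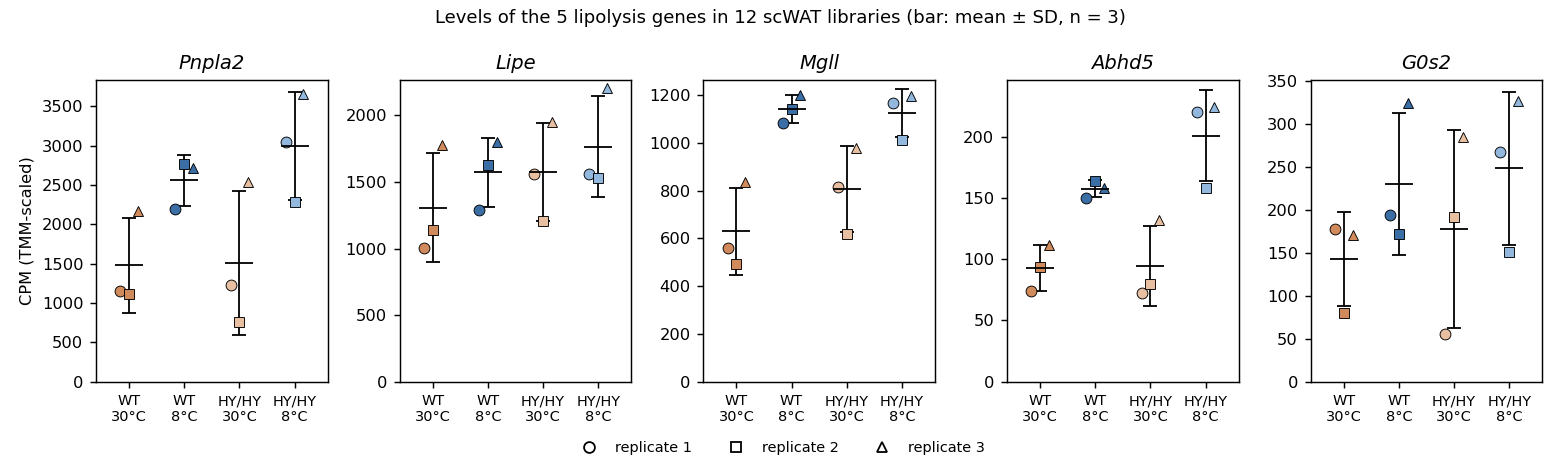
CPM (vertical axis, from 0) of each of the 5 genes in the 12 libraries, 1 point per mouse, with the bar at the mean and whiskers of 1 SD (n = 3). *Mgll* and *Abhd5* at 8°C lie above 30°C without overlap in both genotypes, *Lipe* and *G0s2* overlap, and replicate 3 at 30°C is the highest of its group for *Pnpla2* in both genotypes (2172 and 2535 CPM).

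Counted over the members, 2 of 5 rose with cold in wild-type mice and the other 3 were not called, where 10.3% of all genes tested were called higher and 6.93% lower. In HY/HY mice 0 of 5 were called, where 0.181% of all genes were called higher and 0.0665% lower, and 3 of the 5 (*Pnpla2*, *Mgll* and *Abhd5*) had an unadjusted p under 0.05. DESeq2 called 1 of them, as did edgeR with the replicate number as a block. All 5 fitted changes were positive in both genotypes, while the median over all genes was -0.07 in wild-type mice and -0.01 in HY/HY mice on the log2 scale. The change of *Lipe* went below 0 in wild-type mice with library totals as scaling (-0.06) and in HY/HY mice without replicate 3 at 8°C (-0.02). A fold change here is relative to the TMM scaling. With library totals in its place the median of all genes moved to -0.41 in wild-type mice, *Mgll* to 0.54 and *Abhd5* to 0.43, and neither was called. *Mgll* was under the limit on adjusted p (0.0261, edgeR) but missed the fold limit, and *Abhd5* missed both (adjusted p = 0.0597). The same change of scaling turned 1707 genes higher and 1147 lower into 1057 higher and 4144 lower.

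Because 6 mice per temperature carry more information than 3, the cold response was also averaged over the genotypes in the same model, a comparison added after the values were seen. *Abhd5* rose 1.89-fold (log2 0.92, SE 0.16, adjusted p = 0.00235, edgeR), *Pnpla2* 1.86-fold (log2 0.89, SE 0.28, adjusted p = 0.0388) and *Mgll* 1.59-fold (log2 0.67, SE 0.15, adjusted p = 0.00892). *Lipe* (log2 0.22, SE 0.18, adjusted p = 0.412) and *G0s2* (log2 0.59, SE 0.36, adjusted p = 0.249) did not pass. These 3 of 5 compare with 7.29% of all genes called higher and 4.96% lower. The *Abhd5* call held without any 1 library, and that of *Mgll* likewise. The *Pnpla2* call was lost without any 1 of 9 libraries (adjusted p between 0.0550 and 0.0859), and held only without replicate 3 of either genotype at 30°C or replicate 2 of HY/HY mice at 8°C.

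The second question was whether the demethylase mutation changed these levels. At 8°C, HY/HY minus wild-type differences on the log2 scale were 0.23 for *Pnpla2* (95% interval -0.64 to 1.09), 0.17 for *Lipe* (-0.40 to 0.73), -0.02 for *Mgll* (-0.49 to 0.45), 0.35 for *Abhd5* (-0.14 to 0.85) and 0.11 for *G0s2* (-0.99 to 1.21). None of the 5 was called, with adjusted p from 0.401 to 0.971 (edgeR), 0 of the 5 at an unadjusted p under 0.05, and DESeq2 called 0. Among all genes 1.51% were called higher and 4.42% lower in HY/HY mice. The libraries of the genotypes overlapped for each of the 5. The interval of *Mgll* excludes a difference of 1.5-fold in either direction, whereas those of *Pnpla2* and *G0s2* include it in both.

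At 30°C the differences were 0.03 for *Pnpla2* (-0.83 to 0.89), 0.27 for *Lipe* (-0.30 to 0.83), 0.36 for *Mgll* (-0.11 to 0.83), 0.03 for *Abhd5* (-0.47 to 0.52) and 0.32 for *G0s2* (-0.79 to 1.42). None was called by edgeR or DESeq2 (adjusted p from 0.407 to 0.978 with edgeR, 0 at an unadjusted p under 0.05), where 0.562% of all genes were called higher and 0.441% lower. The libraries overlapped for all 5.

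Whether the genotypes differed in their response to cold was tested as an interaction, HY/HY minus wild type. It was 0.20 for *Pnpla2* (-1.02 to 1.42), -0.10 for *Lipe* (-0.90 to 0.70), -0.38 for *Mgll* (-1.04 to 0.28), 0.33 for *Abhd5* (-0.37 to 1.03) and -0.21 for *G0s2* (-1.76 to 1.35). None passed (adjusted p from 0.599 to 0.926, edgeR, with 0 at an unadjusted p under 0.05 and 0 by DESeq2), where 0.169% of all genes had a larger and 2.07% a smaller response in HY/HY mice. *Mgll* and *Abhd5* were called with cold in wild-type but not in HY/HY mice (edgeR). The test of the difference between the genotypes called neither gene. The cold and genotype comparisons share libraries, so their values for a gene are not independent of each other.

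**Figure D2:**
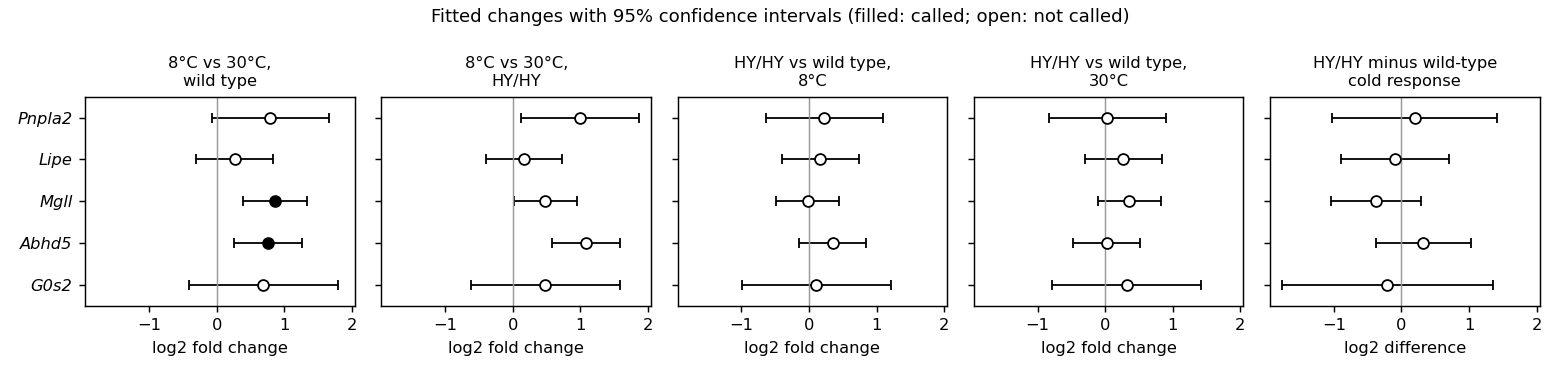
Fitted log2 changes of the 5 genes (points) with 95% confidence intervals in the cold responses of both genotypes, the genotype differences at both temperatures and the difference between the cold responses. Filled points, *Mgll* and *Abhd5* with cold in wild-type mice, were called; every interval of the genotype differences and of the interaction includes 0.

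Ratios of reads within a library do not depend on how libraries are scaled, and describe the balance between the members. The log2 ratio of *Lipe* to *Pnpla2* was -0.19, 0.03 and -0.29 in wild-type mice at 30°C and -0.76, -0.77 and -0.60 at 8°C. In HY/HY mice it was 0.34, 0.67 and -0.38 at 30°C and -0.97, -0.58 and -0.73 at 8°C. The ratio was lower at 8°C in every library of both genotypes, by 0.56 in wild-type and 0.97 in HY/HY mice (exact permutation test, two-sided, p = 0.1 in each, the smallest that 3 against 3 can give).

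The log2 ratio of *Mgll* to *Lipe* was also without overlap. It was -1.05 ± 0.18 at 30°C against -0.45 ± 0.17 at 8°C in wild-type mice, and -0.96 ± 0.03 against -0.63 ± 0.23 in HY/HY mice (exact permutation p = 0.1 in each, two-sided). *Lipe* was thus lower in the cold relative to both other lipases. The ratios of ATGL to its regulators overlapped in all 4 comparisons. The log2 ratio of *Pnpla2* to *G0s2* was 3.39 ± 0.60 at 30°C and 3.53 ± 0.47 at 8°C in wild-type mice, and 3.20 ± 1.24 and 3.64 ± 0.24 in HY/HY mice. The log2 ratio of *Pnpla2* to *Abhd5* was 3.94 ± 0.36 and 4.02 ± 0.13 in wild-type mice, and 3.87 ± 0.54 and 3.89 ± 0.12 in HY/HY mice.

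The balance between the genotypes depended on which gene of mature fat cells was taken as the reference. *Adipoq*, which encodes adiponectin, was at 1497 ± 268 CPM in wild-type and 3083 ± 399.6 CPM in HY/HY mice at 8°C, a log2 difference of 1.04 that was not called (adjusted p = 0.0767, edgeR). Over *Adipoq*, all 5 members were lower in HY/HY mice at 8°C without overlap, by 0.84 for *Pnpla2*, 0.89 for *Lipe*, 1.07 for *Mgll*, 0.71 for *Abhd5* and 0.96 for *G0s2* on the log2 scale (exact permutation p = 0.1 each, two-sided, the smallest possible). With cold in wild-type mice all 5 rose over *Adipoq* without overlap, by 1.43, 0.87, 1.47, 1.35 and 1.29 in the same order. In HY/HY mice the cold changes were 0.78, -0.19, 0.14, 0.75 and 0.34, and *Pnpla2* was the one without overlap. At 30°C the genotype differences were -0.19, 0.17, 0.25, -0.12 and -0.01, with overlap for all 5. These ratios share *Adipoq* as the denominator, so they are not independent of each other. *Plin1*, which encodes perilipin 1, was added as a reference after the values were seen. Over *Plin1* the genotype differences at 8°C were -0.09, -0.14, -0.32, 0.04 and -0.20 in the same order, and *Lipe* was the one without overlap. With cold in wild-type mice *Lipe* changed over *Plin1* by 0.01 and *G0s2* by 0.43, both with overlap. The other members rose without overlap, *Pnpla2* by 0.57, *Mgll* by 0.61 and *Abhd5* by 0.49. At 8°C *Plin1* was at 1239 ± 263 CPM in wild-type and 1520 ± 312 CPM in HY/HY mice. In tissue, fewer cells of a type and less RNA per cell cannot be told apart.

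**Figure D3:**
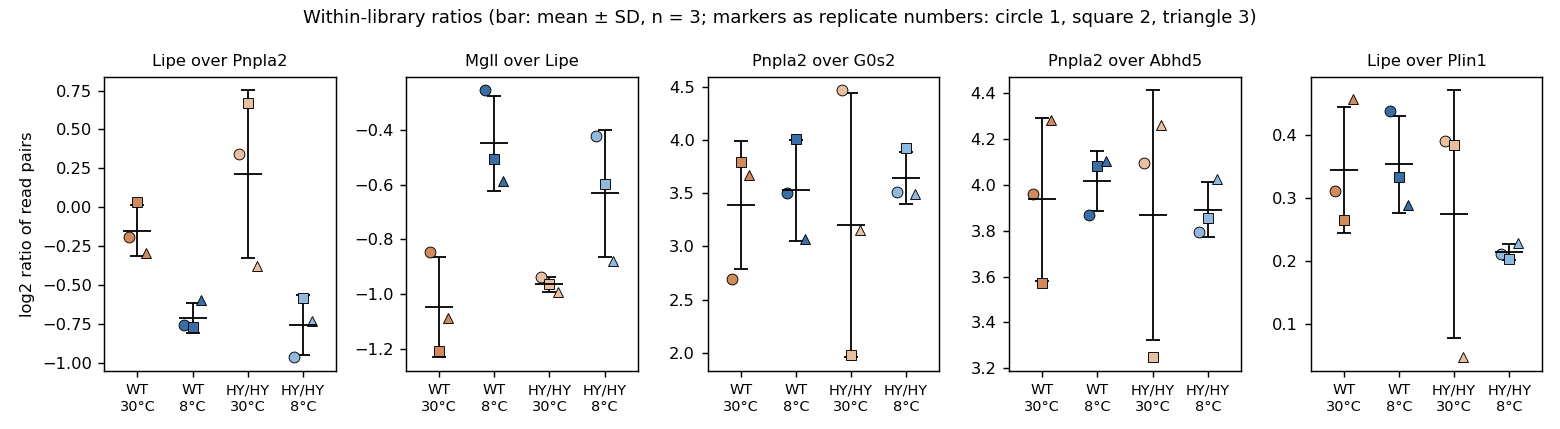
Log2 ratios of read pairs within each library for 4 pairs of members and for *Lipe* over *Plin1*, 1 point per mouse with the mean and SD of 3. *Lipe* over *Pnpla2* lies lower and *Mgll* over *Lipe* higher at 8°C in both genotypes without overlap, while *Pnpla2* over *G0s2* and over *Abhd5* overlap.

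Across the 12 libraries, the log2 CPM of the members rose and fell together to different degrees, which is given as a description since the libraries share groups and scaling. Pearson's r was 0.92 for *Pnpla2* and *Abhd5*, 0.89 for *Pnpla2* and *Mgll*, 0.85 for *Mgll* and *Abhd5*, 0.78 for *Pnpla2* and *Lipe* and 0.76 for *Lipe* and *Mgll*. It was 0.64 for *Lipe* and *Abhd5*. For the inhibitor *G0s2* it ran from 0.45 with *Lipe* to 0.67 with *Abhd5*. With the group means removed, r among *Pnpla2*, *Lipe*, *Mgll* and *Abhd5* ran from 0.67 (*Mgll* and *Abhd5*) to 0.93 (*Pnpla2* and *Mgll*), so these also varied together among mice of one group. Replicate 3 at 30°C was the highest of its group for each of them in both genotypes, and r without those libraries was not computed. For *G0s2*, r was 0.44 with *Pnpla2*, 0.33 with *Lipe*, 0.37 with *Mgll* and 0.60 with *Abhd5*.

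Among 9528 genes with a mean of at least 10 CPM, the one most like *Pnpla2* over the 12 libraries was *Ephx2*, a soluble epoxide hydrolase, with r = 0.98, followed by *Pon3*, *Sgcd*, *Acad11* and *Tmem126b*. *Lipe* was most like *Plin1*, the droplet coat protein (r = 0.96), then *Cd1d1*, *Fbxw2* and *Akr1a4*. *Mgll* was most like *St3gal3*, a sialyltransferase (r = 0.98), then *Smpdl3a*, *2310001A20Rik*, *Scp2* and *March2*. *Abhd5* was most like *Rnf24* (r = 0.97), then *Xpnpep3*, *Sfxn1*, *Dnajb9* and the peroxiredoxin *Prdx1*. *G0s2* had the weakest neighbours, *Pdxk*, the kinase of vitamin B6, at r = 0.92 and *Wdr12* at 0.91. The most alike genes of the 5 members did not repeat, and no member was among the nearest 5 of another.

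The rest of the pathway was followed in 8 lists of 128 genes, of which 126 were tested. In wild-type mice 33 of them rose and 2 fell with cold, against 10.3% and 6.93% of all genes, with a median log2 change of 0.29. The count was 27 without the wild-type library with muscle markers, and also 27 without replicate 1 at 30°C. It was 39 without wild-type replicate 3 at 30°C, and 30, 28 and 26 without wild-type replicates 1 to 3 at 8°C. In HY/HY mice 1 rose and the others were not called by edgeR, against 0.181% and 0.0665%, with a median of 0.33. DESeq2 called 9 higher and 1 lower there, 34 and 2 had an unadjusted p under 0.05, and edgeR called 19 higher without replicate 3 at 30°C and 8 higher with the replicate block.

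Of the other lipases and hydrolases, 7 of 20 rose in wild-type mice and 13 were not called (median log2 0.71). They included *Lipg*, endothelial lipase (2.21), *Lipa*, the lysosomal acid lipase (1.49), and *Pnpla8*, a phospholipase of mitochondria and peroxisomes (1.15). In wild-type mice *Lipa* went from 36.5 ± 3.10 to 103 ± 10.2 CPM, and in HY/HY mice from 45.8 ± 6.63 to 65.8 ± 5.67 CPM. At 8°C *Lipa* and *Ddhd2* were lower in HY/HY mice (log2 -0.65 and -0.94) and the other 18 were not called.

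Among 19 genes of the droplet surface, 6 rose in wild-type mice and 13 were not called (median 0.28). *Cidea* and *Cideb*, which encode droplet proteins of the CIDE family, rose by 4.44 and 3.32, and *Plin5*, the perilipin of oxidative tissues, by 3.82. *Plin5* stood at 9.90 ± 5.25 CPM in warm and 138 ± 9.49 CPM in cold wild-type mice, beside 8.35 ± 3.10 and 27.0 ± 7.88 CPM in HY/HY mice. At 8°C these 3 were lower in HY/HY mice (*Cidea* -2.63, *Plin5* -2.35, *Cideb* -2.13), and *Serpinf1*, whose secreted product PEDF binds ATGL, was higher (1.10). *Plin1* was not called in any of the 4 comparisons between groups.

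Of 8 receptors that stimulate lipolysis, 0 were called with cold in either genotype by edgeR or DESeq2, with 1 at an unadjusted p under 0.05 in wild-type mice (median -0.03). The β3-adrenergic receptor gene *Adrb3* was at 444 ± 169 and 391.5 ± 66.0 CPM in wild-type mice. At 8°C the thyrotropin receptor *Tshr* (1.46) and the corticotropin receptor *Mc2r* (0.87) were higher in HY/HY mice. Of 10 receptors that restrain lipolysis, *Ptger3*, a prostaglandin E receptor, rose in wild-type mice (1.19), and *Sucnr1*, the succinate receptor, was higher in HY/HY mice at 8°C (1.28).

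Between receptor and lipase, 7 of 22 genes of cAMP signalling rose in wild-type mice and 15 were not called (median 0.49). The largest changes were those of *Adcy3*, an adenylyl cyclase (1.95), *Gnas*, the stimulatory G protein (1.49), and *Prkar2b*, a regulatory subunit of protein kinase A (1.40). In wild-type mice *Gnas* went from 781 ± 114 to 2195 ± 360 CPM, while HY/HY mice had 882.5 ± 90.5 and 943 ± 49.6 CPM. At 8°C *Gnas* (-1.22), *Adcy3* (-0.83) and the phosphodiesterase *Pde4d* (-0.77) were lower in HY/HY mice, and the inhibitory G protein gene *Gnai1* was higher (1.14). Of 12 genes listed for the insulin arm, *Mtor* rose (1.44) and *Pik3r1*, a regulatory subunit of PI3 kinase, fell (-0.77) in wild-type mice. *Pdk1*, which rose by 0.70, encodes a kinase of pyruvate dehydrogenase in mice, so it does not act in that arm.

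Of 19 transcription factors and coactivators, 3 rose and 1 fell in wild-type mice (median -0.01). *Ppara* rose by 2.99, *Ppargc1a* by 2.72 and *Cebpb* by 1.99, and *Stat5a* fell by 0.75. The same first 3 were lower in HY/HY mice at 8°C (-2.13, -1.33 and -1.87). *Foxo1*, a forkhead factor known to drive *Pnpla2*, was at 43.6 ± 3.78 and 45.2 ± 7.37 CPM in wild-type mice at 30°C and 8°C.

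Among 16 genes that handle the products of lipolysis, 7 rose in wild-type mice and 9 were not called (median 0.92). Glycerol kinase *Gk*, which returns glycerol to glycerol 3-phosphate, rose from 4.75 ± 0.77 to 138 ± 32.9 CPM (log2 4.85), and it was the 1 gene of the 126 that rose in HY/HY mice, from 6.37 ± 1.06 to 34.5 ± 13.4 CPM (2.44, adjusted p = 0.0042, edgeR). The acyl-CoA synthetase *Acsl5* rose by 2.18 and *Gpd1*, which makes glycerol 3-phosphate from a product of glycolysis, by 2.38. At 8°C *Gk*, *Acsl5* (-1.87) and *Gpd1* (-1.21) were lower in HY/HY mice, and *Gpat3*, an acyltransferase, was higher (1.19).

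In all, 7 of the 126 were higher and 16 lower in HY/HY mice at 8°C, beside the 1.51% and 4.42% of all genes given above, and with a median of 0.11. At 30°C *Pnpla3*, a relative of ATGL (1.13), and *Gnai1* (1.24) were higher and the others were not called. The interaction was called for 7 of the 126, each with the smaller response in HY/HY mice. Over all 16540 genes it was called below 0 for 342 (2.07%) and above 0 for 28 (0.169%), so most calls went this way. These 7 were *Gk* (-2.41), *Ppargc1a* (-2.19), *Cebpb* (-1.96), *Acsl5* (-1.71), *Gnas* (-1.39), *Lipa* (-0.97) and *Mtor* (-0.95). The counts at 8°C changed when single libraries were left out, as did those over all genes. Without replicates 2 or 3 of wild-type mice 7 or 6 were lower, and without replicates 1 or 3 of HY/HY mice 6 or 7. Without wild-type replicate 1 or HY/HY replicate 2 it was 11. The number higher was 3, 0 and 3 without wild-type replicates 1, 2 and 3 and 4 and 1 without HY/HY replicates 1 and 3. Over all genes, the count lower went from 731 to 468 and 347 without wild-type replicates 2 and 3. It went to 348 and 301 without HY/HY replicates 1 and 3. The count higher went from 249 to 44, 79, 68 and 43 in the same order. The interaction was called for 2 to 4 genes without wild-type replicates 1 or 2 at 30°C or 2 or 3 at 8°C, or without HY/HY replicate 2 at 30°C or any at 8°C, and for 15 without HY/HY replicate 1 at 30°C. Over all genes the count below 0 was 64 to 177 without those same libraries, and 606 without HY/HY replicate 1 at 30°C.

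**Figure D4:**
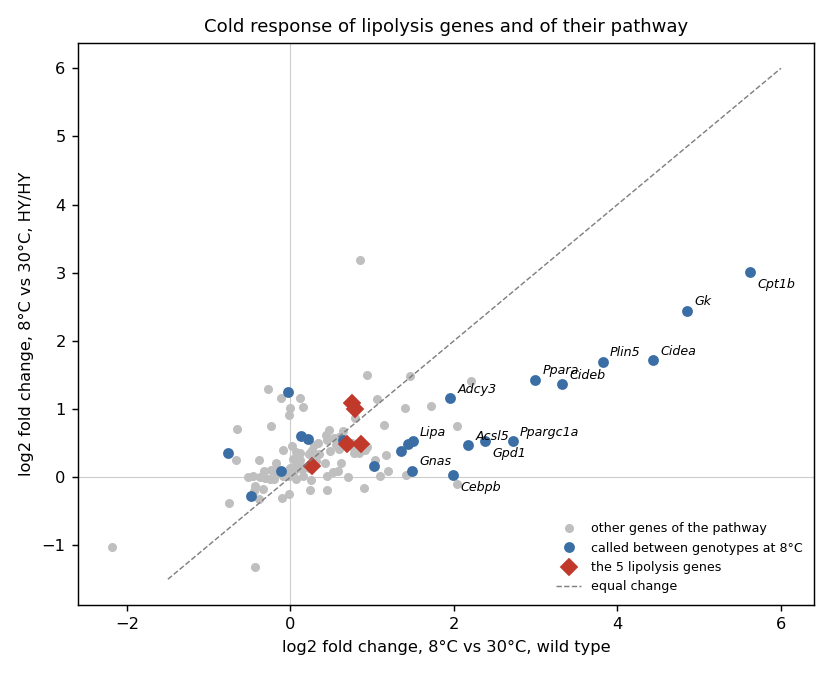
Log2 change from 30°C to 8°C in wild-type mice (horizontal) and in HY/HY mice (vertical), which share no libraries, for the 126 genes of the pathway lists and the 5 members (diamonds). Genes called between the genotypes at 8°C are blue, and those that changed most in wild-type mice lie below the dashed line of equal change, such as *Gk* (4.85 and 2.44), while the members lie between 0.17 and 1.08 on both axes.

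Markers of other cell types moved with the groups, and their part in the levels of the members was not tested. The summed level of 10 genes of thermogenic adipocytes was 81.3 to 207 CPM in wild-type and 69.4 to 259 CPM in HY/HY mice at 30°C, and 9410 to 10567 and 581 to 1875 CPM at 8°C. Of these, 10 of 10 rose in wild-type and 4 of 10 in HY/HY mice by edgeR, against 10.3% and 0.181% of all genes. In HY/HY mice DESeq2 called 6 higher, and 9 had an unadjusted p under 0.05. At 8°C, 9 of 10 were lower in HY/HY mice, against 4.42% of all genes. Of 12 white adipocyte markers, *Lep* and *Cfd* fell with cold in wild-type mice, and *Lep* and *Retn* were higher in HY/HY mice at 8°C. Their sum was 26462 to 48752 CPM at 30°C and 34152 to 42079 CPM at 8°C in wild-type mice, and 25367 to 58244 and 43114 to 60002 CPM in HY/HY mice. Of 10 endothelial genes 4 rose in wild-type mice, where their sum went from 660 to 1003 CPM to 1192 to 1486 CPM, and of 10 macrophage genes 2 were higher in HY/HY mice at 8°C (299 to 420 CPM against 202 to 212 CPM). With cold in wild-type mice 6 of 8 muscle genes were called lower by edgeR, while DESeq2 gave 7 of the 8 no adjusted p. Their sum was 1440 CPM in 1 library at 30°C, 15.2 and 26.7 CPM in the other 2 and 19.2 to 21.3 CPM at 8°C. In the same comparison 3 of 9 mammary epithelial genes fell, and the sum of this list was 3424 to 5658 CPM at 30°C and 2112 to 2398 CPM at 8°C. In HY/HY mice the sum was 880 to 2298 CPM at 30°C and 1284 to 2009 CPM at 8°C, without overlap with wild-type mice at either temperature. Between genotypes at 30°C, 1 of the 9 was lower in HY/HY mice by edgeR and 3 by DESeq2. With cold in wild-type mice, *Cd34* rose and *Ly6a* fell among 10 progenitor genes. Of 10 lymph node genes 0 were called there by edgeR or DESeq2, with 3 at an unadjusted p under 0.05.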

How the data were processed

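RNA of scWAT was taken with ISOGEN, made into TruSeq libraries and sequenced as paired 50-base reads. The authors ran FastQC, fastp for trimming and STAR for alignment to mm10, and they deposited unnormalised counts of read pairs per gene and strand for each of the 12 libraries. Tool versions are not given in the sources used here, and the authors' StringTie values were not used. Sense-strand counts were analysed with edgeR 4.0.16 in R 4.3.3 with TMM scaling, filterByExpr defaults (16540 genes kept) and a quasi-likelihood model of 1 mean per group, with 8 residual degrees of freedom. Entries that name no gene (55.8% to 63.5% of all read pairs, together with pairs on the other strand) entered neither library sizes nor tests. Symbols were paired with 32589 of 55401 IDs, and 2645 IDs whose symbol is shared were used by ID.

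Levels are CPM on TMM-scaled sizes, per kilobase of merged exons of GENCODE M1 where genes are compared. Ratios used counts plus 0.5. Likeness is Pearson's r of log2 CPM (prior count 2), and the 5 nearest genes are named. From the pathway lists, genes called in a comparison were eligible, at most the 3 largest rises and falls per list, with genes of textbook bearing on a member. The members and all lists were chosen with earlier results of these data known. The fit was also run on simulated counts, but the outcome is not given here and lends the calls no support. Replicates were separate mice, and no 2 libraries agreed within sampling noise. The alternatives were DESeq2 1.42.0, library totals or DESeq2 size factors for scaling, mitochondrial genes left out of library sizes, no filter or at least 10 counts in every library, only the libraries compared, both strands, the replicate number as a block, and each library left out. Replicate numbers come from the sample titles. The correlation of deviations from the group means was 0.11, 0.20 and 0.30 for same-numbered HY/HY mice across the temperatures. It ran from -0.06 to 0.35 in the other comparisons. These values were not set beside those of unlike-numbered mice, so they do not show pairing. The block was used as an alternative only. Protein sequences were not used here.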

Additional observations from a re-analysis of the deposited data

Results flagged for a closer look

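The interaction test (edgeR, adjusted over 16540 genes) was passed by 7 genes of the pathway other than the 5 members, each with the smaller rise in HY/HY mice. Most calls over all genes went the same way, with 342 (2.07%) below 0 and 28 (0.169%) above. On the log2 scale the differences were -2.41 for glycerol kinase *Gk* (adjusted p = 0.0133), -2.19 for the coactivator *Ppargc1a* (0.039), -1.96 for *Cebpb* (0.031) and -1.71 for the acyl-CoA synthetase *Acsl5* (0.00471). They were -1.39 for the G protein gene *Gnas* (0.0146), -0.97 for lysosomal lipase *Lipa* (0.0218) and -0.95 for *Mtor* (0.0312). *Acsl5* went from 95.1 ± 2.91 to 430 ± 43.1 CPM with cold in wild-type mice and from 85.0 ± 4.94 to 118 ± 18.8 CPM in HY/HY mice. *Cebpb* went from 23.3 ± 0.50 to 92.8 ± 35.5 CPM and from 24.8 ± 9.13 to 25.4 ± 0.25 CPM. *Ppargc1a* is also one of the thermogenic markers whose sum moved with the groups, and whether the other 6 follow those cells was not tested.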

How the results depend on the processing

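No direction that was called turned around under any alternative, and no member was called between genotypes or in the interaction under any. For cold in wild-type mice, library totals in place of TMM gave log2 0.54 for *Mgll* and 0.43 for *Abhd5*, both under the fold limit. So 0 members were called, with 11 pathway genes lower in place of 2. Leaving out 1 library gave 0.71 to 1.12 for *Mgll*, 0.62 to 0.91 for *Abhd5*, 0 to 2 members called and 0 to 2 pathway genes lower. The fit with a replicate block called *Pnpla2* (0.90, adjusted p = 0.0333, against 0.0333 to 0.368 over 21 alternatives).

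In HY/HY mice *Abhd5* was called with DESeq2 (1.09), library totals (0.99), no filter (1.07) and the replicate block (1.12), so 1 member in each. Leaving out 1 library gave 0.92 to 1.40 for *Abhd5*, 0.67 to 1.59 for *Pnpla2*, 0 to 2 members and 1 to 19 pathway genes higher. DESeq2 called 9 pathway genes higher and 1 lower, and library totals 2 higher. For genotype at 8°C, leaving out 1 library gave 0 to 9 pathway genes higher and 6 to 17 lower. At 30°C 7 were higher with DESeq2, 1 with library totals and 0 to 5 without 1 library. In the interaction DESeq2 gave 2 higher and 14 lower, library totals 2 higher, and leaving out 1 library 0 to 2 higher and 2 to 15 lower. Averaged over genotypes, *Mgll* fell short of the fold limit with library totals (0.45, adjusted p = 0.0137, edgeR), and *Pnpla2* was 0.73 to 1.20 without 1 library. The cause of these changes was not tested.

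Same-numbered mice were not known to be pairs in any comparison. Outside the cold response of HY/HY mice, at least 1 of the 3 correlations of their deviations was below 0 in each other comparison. The block changed no other member call. It gave 8 pathway genes higher with cold in HY/HY mice, 6 higher and 1 lower for genotype at 30°C, and 2 higher in the interaction. Over all genes, counts higher and lower moved with library totals from 249 and 731 to 535 and 480 for genotype at 8°C, from 28 and 342 to 43 and 186 for the interaction, and from 1206 and 821 to 723 and 2608 for averaged cold. In HY/HY mice with cold they were 30 and 11, 211 and 91 with DESeq2, 128 and 32 with the block and 461 and 203 without replicate 3 at 30°C. The SE of *Pnpla2* and *G0s2* was 0.40 to 0.51 within a genotype, against 0.22 for *Mgll*.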

Other observations

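*Npr3*, the clearance receptor of natriuretic peptides, which themselves stimulate lipolysis, was the 1 pathway gene lower in the cold when averaged over the genotypes (log2 -0.87, SE 0.25, adjusted p = 0.0258, edgeR). It was at 252.7 ± 45.6 CPM in HY/HY mice at 30°C, 102 ± 44.4 CPM in the same genotype at 8°C, and 80.6 ± 18.5 and 59.8 ± 29.2 CPM in wild-type mice. Neither the fall in HY/HY mice (-1.31, adjusted p = 0.148) nor the genotype difference at 30°C (1.65, adjusted p = 0.0522) passed by itself. *Pnpla3*, the relative of ATGL, was higher in HY/HY mice at 30°C (313 ± 76.2 against 143 ± 18.0 CPM) and close to the wild-type level at 8°C (281 ± 35.6 against 266 ± 22.1 CPM), and its interaction of -1.06 missed the limit (adjusted p = 0.0603). *Plin2*, the perilipin that coats droplets in most cells, rose from 336 ± 78.5 to 1385 ± 123 CPM with cold in wild-type mice and was at 790.5 ± 549 and 737 ± 69.4 CPM in HY/HY mice, where its spread at 30°C was wide.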
